A study of Homo sapiens with 64 samples.

Results

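The histone deacetylases were examined in BEAS-2B cells, a human bronchial epithelial line made immortal by viral genes. The members were taken by gene symbol, as HDAC1, HDAC2, HDAC3, HDAC4, HDAC5, HDAC6, HDAC7, HDAC8, HDAC9 and HDAC11, which makes 10 of 18132 genes tested and 46 of 49395 probe sets on the array. Cells kept in serum-free medium overnight received budesonide at 100 nM, formoterol at 10 nM or both drugs, or were left untreated, and RNA was taken after 1, 2, 6 and 18 h. Budesonide is an inhaled glucocorticoid that acts through the glucocorticoid receptor, and formoterol is a long-acting agonist of the beta2-adrenoceptor, which raises cyclic AMP. Each of the 16 groups had 4 arrays, described by the submitters as independent determinations, and a single cell line limits what the groups stand for. P-values cover only the spread between arrays within groups, and 4 arrays limit how small a difference can be seen.

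Histone deacetylases remove acetyl groups from lysines of histones and of other proteins, which in chromatin is mostly linked to repression of genes. The class I enzymes HDAC1, HDAC2 and HDAC3 are the catalytic subunits of nuclear corepressor complexes, and HDAC2 is known in airway cells for its recruitment by the glucocorticoid receptor to inflammatory genes. The class IIa members HDAC4, HDAC5, HDAC7 and HDAC9 bind transcription factors of the MEF2 family and leave the nucleus when kinases phosphorylate them. Salt-inducible kinases, which protein kinase A restrains when cyclic AMP rises, are among those kinases. HDAC6 (class IIb) acts on tubulin in the cytoplasm, and HDAC11 is the only class IV member.

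The values are deposited log2 expression levels, 1 for each probe set and array, with array medians from 4.87 to 4.95. The lower quartile of all values was 3.02 and marks dim probe sets in what follows. No 2 arrays were identical. Of the 6 epithelial markers, the keratins KRT8 (mean 9.18) and KRT18 (10.97) were high and EPCAM lay under the lower quartile. COL1A1, a collagen gene of fibroblasts, averaged 8.35, and 2 of 8 fibroblast and smooth muscle markers, 3 of 4 leukocyte markers and 1 of 5 endothelial markers lay under that quartile. In bulk RNA, fewer cells expressing a gene and less RNA of it per cell cannot be told apart. Each gene was read by its probe set with the highest mean, and levels are not compared between genes, because probe sets differ in affinity.

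HDAC9 was the member that moved most, and the members that passed the test did so at 6 and 18 h when set against untreated cells. A gene was called when its adjusted p, from limma with Benjamini-Hochberg adjustment over all 18132 genes, was under 0.05, and 40 pairs of gene and time were open in each comparison. Unless a replicate block is named, calls come from the fit without one. Budesonide gave 4 calls, all lower (10%, against 9.38% of all pairs of gene and time). Formoterol gave 4 calls, 1 higher and 3 lower (10%, against 2.97%). The combination gave 5, all lower (12.5%, against 13%). In contrasts where same-numbered arrays paired, a replicate block within each time, a term for the replicate number, added calls. It called HDAC1, HDAC5 and HDAC6 higher with budesonide at 18 h, where it called 4925 of all genes (3325 without it). With the combination it called HDAC6 higher at 18 h (5381 of all genes, 3807 without it) and HDAC11 lower at 2 h (2794 and 1721). No member was called against untreated cells at 1 h, where 0.998% of all genes were called with budesonide, 1.34% with formoterol and 2.76% with the combination. None was called at 2 h either, where those shares were 3.94%, 4.6% and 9.49%. At an unadjusted p under 0.05 the count over these 6 comparisons was 0 at 1 h and, at 2 h, HDAC2 with formoterol and HDAC11 with the combination. In untreated cells none of the 30 pairs at 2, 6 or 18 h against 1 h was called (background 0.197%, or 0.0165%, 0.21% and 0.364% by time), and HDAC1 and HDAC2 at 2 h and HDAC4 at 18 h had an unadjusted p under 0.05.

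**Figure D1:**
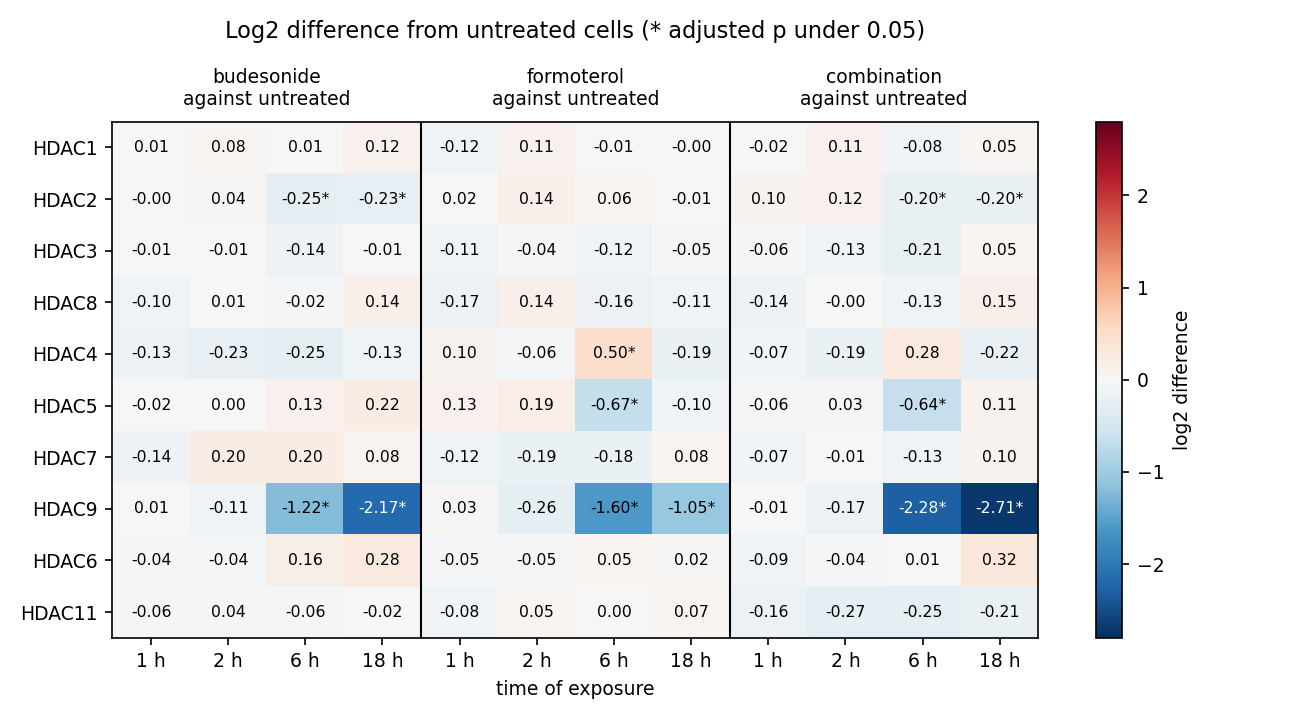
Log2 difference of each of the 10 members (rows) from untreated cells for budesonide, formoterol and the combination at 1, 2, 6 and 18 h (columns), with colour for the difference and an asterisk for an adjusted p under 0.05. HDAC9 had the deepest differences, down to -2.71 with the combination at 18 h, and HDAC4 with formoterol at 6 h (0.50) was the only asterisk on a higher level.

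The 16 group means of HDAC9 spanned 2.78 log2 units, a span at the 98.9th percentile of all genes, with a median SD within groups of 0.19. HDAC5 spanned 1.04 (91.2nd percentile) and HDAC4 0.75 (83.7th). The spans of HDAC6, HDAC7, HDAC11, HDAC8 and HDAC2 were 0.67, 0.61, 0.59, 0.46 and 0.41. HDAC1 (0.25) and HDAC3 (0.25) were the flattest members, at the 12.4th and 11.2nd percentiles. HDAC8 had a median SD within groups of 0.33, so its span was little wider than its spread.

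HDAC9 is a class IIa repressor of MEF2 factors, known for a shortened product that lacks the catalytic domain and still binds MEF2. RefSeq gives it 5 start sites on chromosome 7, plus strand (GRCh38.p14), and the 250 bases before 3 of them are shown because the gene with the deepest response has starts of different makeup. Capitals mark the motifs found.
HDAC9 start 1, chr7:18086575-18086824: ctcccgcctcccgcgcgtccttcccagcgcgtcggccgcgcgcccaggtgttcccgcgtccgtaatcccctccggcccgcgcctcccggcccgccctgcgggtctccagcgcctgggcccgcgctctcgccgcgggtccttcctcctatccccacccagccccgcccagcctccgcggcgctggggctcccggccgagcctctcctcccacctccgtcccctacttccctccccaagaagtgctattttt
HDAC9 start 2, chr7:18495460-18495709: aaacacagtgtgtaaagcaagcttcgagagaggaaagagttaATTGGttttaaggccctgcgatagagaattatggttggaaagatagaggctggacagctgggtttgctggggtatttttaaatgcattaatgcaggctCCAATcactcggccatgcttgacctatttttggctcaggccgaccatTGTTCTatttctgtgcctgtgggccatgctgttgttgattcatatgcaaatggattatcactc
HDAC9 start 5, chr7:18509020-18509269: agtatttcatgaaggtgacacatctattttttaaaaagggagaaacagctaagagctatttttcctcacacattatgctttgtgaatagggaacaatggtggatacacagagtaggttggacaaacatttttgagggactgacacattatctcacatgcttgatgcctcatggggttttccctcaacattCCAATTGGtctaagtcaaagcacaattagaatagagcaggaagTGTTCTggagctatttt
The first window had a GC content of 75.2% and none of the motifs searched. The second and the fifth lay 408885 and 422445 bases downstream and had a GC content of 44% and 38.4%. Each held 1 TGTTCT, the other strand of AGAACA, which is the short site of the glucocorticoid receptor, and 2 matches to the CCAAT box, as CCAAT and ATTGG (in the fifth window these overlap as CCAATTGG). All 5 windows lacked the cyclic AMP response element TGACGTCA and its short form TGACG, or CGTCA on the other strand, which lies within it. The third window, not shown, overlaps the second and holds the same matches, and the fourth held no motif.

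Among 34943 windows of the same length, TGACGTCA was in 1.63%, TGACG or CGTCA in 21.2%, AGAACA or TGTTCT in 12.4% and CCAAT or ATTGG in 32%. Of the 10 members 9 had a window, 19 windows in all, and HDAC5 is named only. The short receptor site was in 4 of those 19, which were 3 of the 5 of HDAC9 and 1 of the 5 of HDAC4. Windows 2 and 3 of HDAC9 overlap and hold the same TGTTCT, so the count of windows is higher than the count of sites. Enrichment over the background was not tested. The short cyclic AMP element was in 1 window of HDAC6. These are matches of letters within the windows, not sites of binding, and the start that the arrays read is not known here.

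With budesonide HDAC9 fell at 6 h and was lower still at 18 h. At 1 h it had 5.93, 6.16, 5.91 and 5.79 log2 units in budesonide cells, against 6.01, 6.06, 5.89 and 5.80 in untreated cells. At 2 h the levels were 5.63, 5.93, 5.77 and 5.68 with budesonide and 5.82, 6.05, 5.95 and 5.63 without. The groups overlapped at both times, with log2 differences of 0.01 ± 0.14 (SE, n = 4 arrays a group) and -0.11 ± 0.14. At 6 h the arrays read 4.77, 4.36, 4.23 and 4.49 with budesonide, against 5.95, 5.70, 5.56 and 5.51 untreated. At 18 h they read 3.86, 3.95, 3.40 and 3.75 with budesonide, against 5.96, 6.12, 5.67 and 5.88 untreated. All budesonide arrays lay below all untreated arrays at both late times. The difference was -1.22 ± 0.14 at 6 h (adjusted p = 7.87e-11), which is 43.0% of the untreated level on the linear scale, and -2.17 ± 0.14 at 18 h (adjusted p = 1.37e-20), or 22.3%.

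With formoterol HDAC9 fell at 6 h and was less low at 18 h. It had 5.86, 6.23, 6.04 and 5.77 at 1 h in formoterol cells and 5.75, 5.76, 5.68 and 5.22 at 2 h, and both groups overlapped the untreated arrays. The 2 h difference was -0.26 ± 0.14 (adjusted p = 0.439). At 6 h the formoterol arrays read 4.10, 4.17, 4.13 and 3.90, and at 18 h 5.13, 4.99, 4.85 and 4.43, against the untreated arrays given above. Again every treated array was below every untreated one. The difference was -1.60 ± 0.14 at 6 h (32.9% of the untreated level, adjusted p = 2.82e-14) and -1.05 ± 0.14 at 18 h (48.2%, adjusted p = 3.56e-07).

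The combination gave the lowest HDAC9 levels at both late times. At 1 h the arrays read 5.96, 6.16, 5.93 and 5.68 and at 2 h 5.74, 5.75, 5.63 and 5.64, overlapping untreated cells. They read 3.43, 3.42, 3.41 and 3.36 at 6 h and 3.24, 3.04, 2.98 and 3.54 at 18 h, where 1 array was under the lower quartile of all values (3.02). The difference from untreated cells was -2.28 ± 0.14 at 6 h (20.7% of the untreated level, adjusted p = 1.31e-21) and -2.71 ± 0.14 at 18 h (15.3%, adjusted p = 5.18e-25), with no overlap of arrays. The 3 treatments share their untreated arrays at each time, so these differences are not independent of one another.

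**Figure D2:**
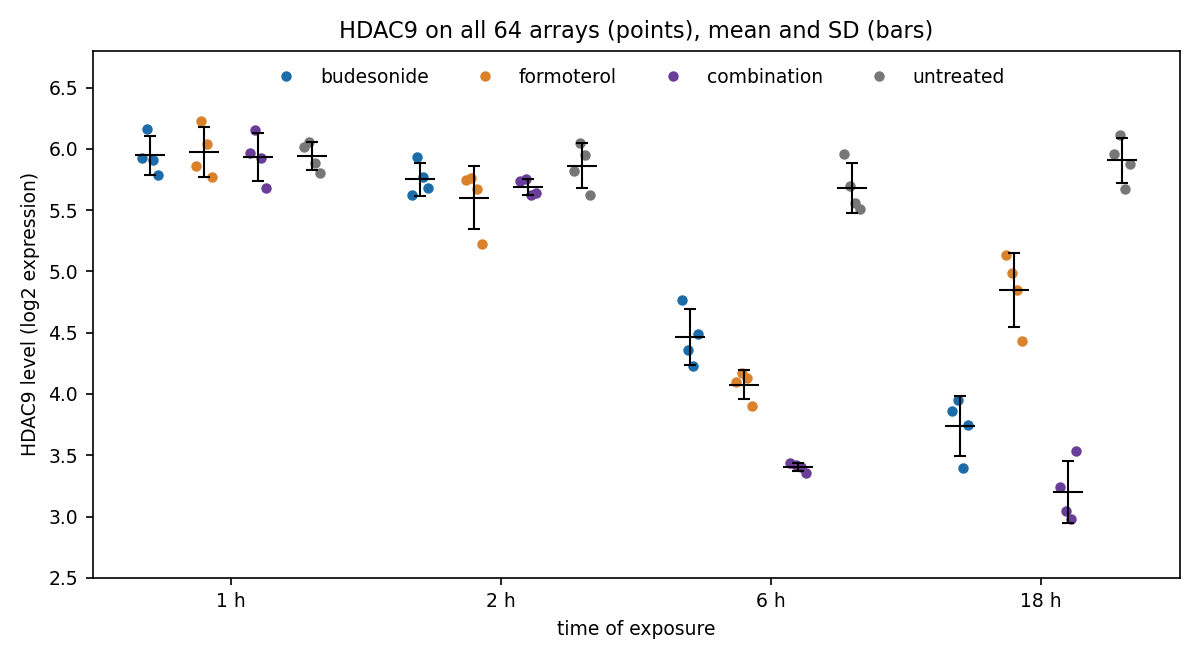
HDAC9 level (log2 expression) on each of the 64 arrays at 1, 2, 6 and 18 h, with 4 points for each group, a wide bar for the mean and whiskers for the SD. Untreated arrays stayed between 5.51 and 6.12, while the combination arrays lay between 2.98 and 3.54 at 6 and 18 h.

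Set against each drug alone, HDAC9 was lower in combination cells. At 6 h the combination differed from budesonide by -1.06 ± 0.14 (adjusted p = 2.17e-08) and from formoterol by -0.67 ± 0.14 (adjusted p = 0.000114), without overlap in either case. At 18 h it differed from formoterol by -1.65 ± 0.14 (adjusted p = 1.27e-15), again without overlap. Against budesonide at 18 h the difference was -0.54 ± 0.14 (adjusted p = 0.0312) and the arrays overlapped. That call was lost when the deposited values were quantile normalized again (adjusted p = 0.0520), when only the compared arrays were fitted (0.104), and without any 1 of budesonide replicates 1, 2 and 4 or combination replicates 1, 2 and 3 (adjusted p 0.0743 to 0.194).

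No interaction of the drugs was called for HDAC9 in the fit without a replicate block. On the log2 scale the interaction (combination minus budesonide minus formoterol plus untreated) was 0.55 ± 0.19 at 6 h (95% interval 0.16 to 0.93, unadjusted p = 0.00597, adjusted p = 0.309). It was 0.51 ± 0.19 at 18 h (0.13 to 0.90, unadjusted p = 0.00938, adjusted p = 0.405). With the mean of all 5 probe sets the interaction was 0.05 at 6 h and 0.26 at 18 h. Over all 40 pairs no member was called for interaction (background 0.44%, from 0.171% at 1 h to 0.722% at 6 h), and HDAC11 at 2 h was the other pair with an unadjusted p under 0.05. The combination levels lay near the lower quartile of all values, and the part of this in the interaction was not tested.

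Ordered by mean, the HDAC9 levels formed an upper block of 10 groups and a lower run of 6. The upper block held all groups at 1 and 2 h and untreated cells at 6 and 18 h. It ran from 5.98 ± 0.20 (SD) with formoterol at 1 h to 5.60 ± 0.26 with formoterol at 2 h, and each neighbour overlapped the next. Below a gap of 0.75 came formoterol at 18 h (4.85 ± 0.30) and budesonide at 6 h (4.46 ± 0.23), which overlapped. Formoterol at 6 h (4.08 ± 0.12), budesonide at 18 h (3.74 ± 0.24), the combination at 6 h (3.40 ± 0.03) and the combination at 18 h (3.20 ± 0.25) followed, each overlapping its neighbour. Budesonide at 6 h and formoterol at 6 h did not overlap. In untreated cells HDAC9 at 6 h had the lowest mean, 5.68, and its difference from 1 h, -0.26 ± 0.14, had an adjusted p of 0.818.

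The effect on HDAC9 differed between times under each treatment, by a moderated F test over 1, 2, 6 and 18 h. The adjusted p was 4.59e-15 for budesonide (12.7% of all genes were called in this test), 1.82e-09 for formoterol (4.51%) and 5.22e-21 for the combination (22.6%). In the differences above budesonide was deeper at 18 h than at 6 h, and formoterol shallower, but 18 h was not tested against 6 h. With the mean of all 5 probe sets the differences at 6 and 18 h were -0.24 and -0.63 with budesonide. They were -0.39 and -0.31 with formoterol. The same F test called HDAC2 with budesonide (adjusted p = 0.0252) and with the combination (0.00205), HDAC5 with formoterol (0.00241) and with the combination (0.00381), and HDAC4 with formoterol (0.0305). No other member was called in it.

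The depth of the HDAC9 response rests on 1 of its 5 probe sets. The platform annotation ties each of these probe sets to a different transcript record. Which HDAC9 transcripts each probe set reads, with or without the catalytic domain, was not determined. The depth given above therefore need not hold for all HDAC9 transcripts. Probe set 11728076_at, which stands for the gene above, had a mean of 5.13 over 64 arrays. The other 4 had means of 2.95 (11736838_a_at), 2.81 (11747588_a_at), 2.15 (11755397_a_at) and 2.12 (11747801_a_at), all under the lower quartile of 3.02. Among these, 11747801_a_at was called at 18 h and in no other of the 12 comparisons with untreated cells. It averaged 1.84 with budesonide, 1.85 with the combination and 2.32 in untreated cells, and the differences were -0.48 ± 0.15 (adjusted p = 0.0229) and -0.46 ± 0.15 (adjusted p = 0.0246), with no overlap. Over the 5 probe sets, budesonide gave 3 calls in 20 pairs of probe set and time, formoterol 2 and the combination 3, all lower. The combination against budesonide gave 1, at 6 h, where 4.31% of all probe sets were called, against 0.422% at 18 h. At 18 h the share of all probe sets called was 13.5% with budesonide, 0.591% with formoterol and 15.6% with the combination, and at 6 h 9.99%, 3.16% and 14%.

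The other 3 probe sets were not called. In 11736838_a_at all 6 differences at 6 and 18 h were negative, the sign of the first probe set. At 6 h 11736838_a_at differed by -0.42 ± 0.16 with budesonide, -0.36 ± 0.16 with formoterol and -0.33 ± 0.16 with the combination, with adjusted p of 0.0953, 0.369 and 0.210 and 95% intervals below 0. At 18 h it differed by -0.36 ± 0.16 with budesonide (adjusted p = 0.150), with all budesonide arrays below the untreated ones, by -0.11 ± 0.16 with formoterol and by -0.31 ± 0.16 with the combination (adjusted p = 0.910 and 0.229). At 6 h 11747588_a_at differed by 0.34 ± 0.14 with budesonide (adjusted p = 0.138) and 11755397_a_at by 0.19 ± 0.12 (adjusted p = 0.423), the opposite direction. With the mean of all 5 probe sets as the gene's value, the HDAC9 difference was -0.24 with budesonide at 6 h and -0.63 at 18 h. It was -0.39 and -0.31 with formoterol and -0.58 and -0.68 with the combination at the same times, and all 6 were still called. The mean lost the call of the combination against formoterol at 6 h (-0.19, adjusted p = 0.0513) and against budesonide at 18 h (-0.05, adjusted p = 0.977).

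**Figure D3:**
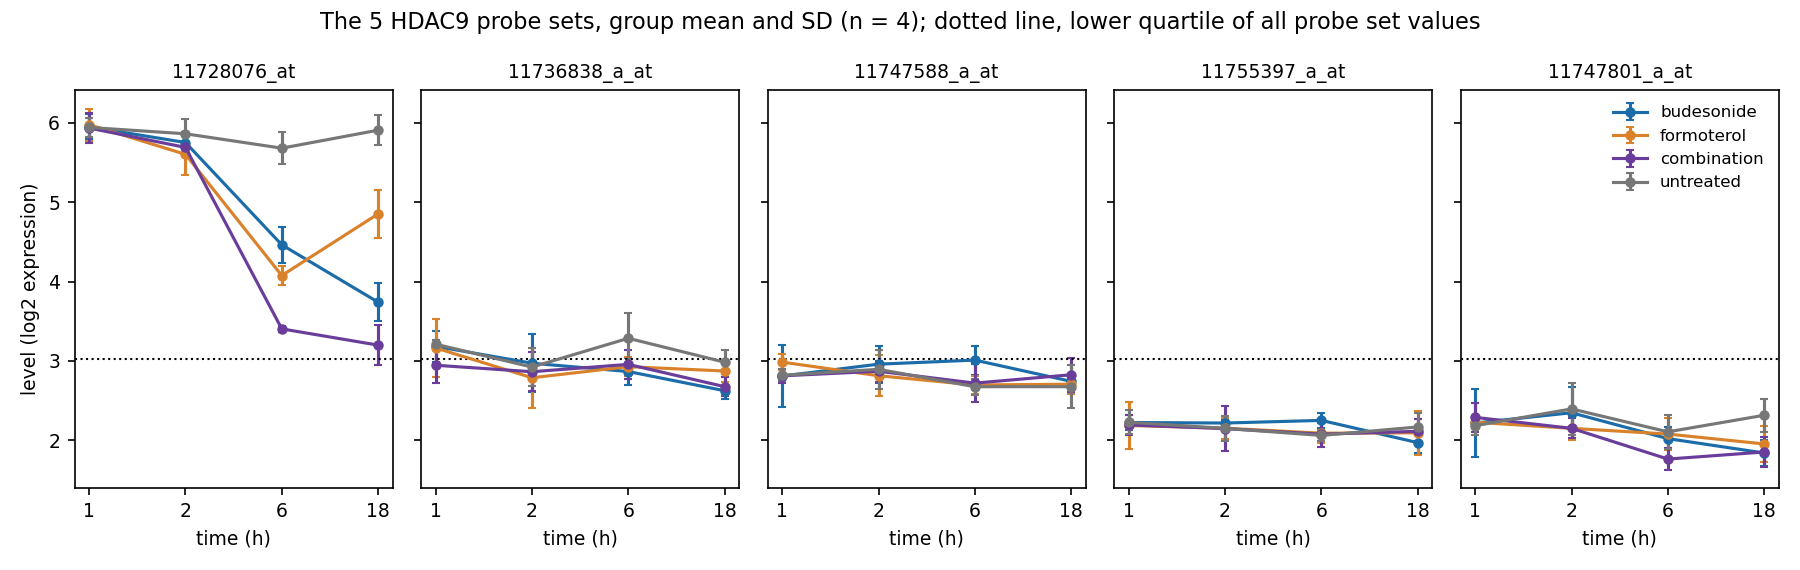
Group mean level (log2 expression) with SD of the 5 HDAC9 probe sets, 1 panel each, at 1, 2, 6 and 18 h, with a dotted line at the lower quartile of all values, 3.02. The first panel shows the separation of treated from untreated cells at 6 and 18 h, while the other panels run near or below the dotted line, with 4 of the 16 group means of 11736838_a_at above it, up to 3.29 in untreated cells at 6 h.

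Group means of HDAC9 varied with those of a few other genes, given here as a description across 16 group means that share arrays and normalization. Of 1707 genes whose means spanned at least 1 log2 unit, those with the highest Pearson r to HDAC9 were ANTXR2, a receptor for anthrax toxin (0.982), OXTR, the oxytocin receptor (0.978), PTPRB, a receptor tyrosine phosphatase (0.969), the clock gene PER3 (0.966) and PTPRR, another phosphatase (0.965). At 6 h ANTXR2 differed from untreated cells by -1.30 with budesonide, -1.28 with formoterol and -1.69 with the combination. OXTR differed by -0.66, -1.36 and -2.19 in the same order. For HDAC5 the closest were NAV3 (0.896), SH3TC2 (0.827), ETFDH (0.800), KLF5 (0.795) and C1orf198 (0.786).

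HDAC5, the class IIa member best known as a target of calcium and kinase signals in muscle, fell at 6 h where formoterol was present. It had 6.93, 6.88, 6.48 and 6.64 log2 units in formoterol cells at 6 h and 7.14, 6.82, 6.48 and 6.62 in combination cells, against 7.66, 7.39, 7.24 and 7.32 in untreated cells. Budesonide cells at 6 h read 7.64, 7.52, 7.37 and 7.58. The formoterol and combination arrays lay wholly below the untreated and the budesonide arrays, and the budesonide arrays overlapped the untreated ones. The difference was -0.67 ± 0.13 with formoterol (adjusted p = 0.000194) and -0.64 ± 0.13 with the combination (adjusted p = 0.000105). Against budesonide the combination differed by -0.76 ± 0.13 (adjusted p = 1.68e-05), and against formoterol it differed by 0.04 ± 0.13 (95% interval -0.22 to 0.30, adjusted p = 0.931).

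HDAC5 was called at 6 h alone. Its group means at 1, 2 and 18 h lay between 7.35 and 7.77 in treated cells and between 7.41 and 7.57 in untreated cells. At 18 h the differences were 0.22 ± 0.13 with budesonide, -0.10 ± 0.13 with formoterol and 0.11 ± 0.13 with the combination, none called. With a replicate block within each time, a term for the replicate number, the budesonide difference at 18 h had an adjusted p of 0.0136 in place of 0.288. All 3 HDAC5 probe sets ran lower in the 3 called comparisons, and 1, 1 and 2 of them were called. With their mean as the gene's value the difference was -0.42 with formoterol, -0.27 with the combination and -0.52 for the combination against budesonide, all called.

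HDAC4, a class IIa member that binds MEF2 factors, moved the other way at 6 h. It had 6.72, 7.02, 6.68 and 6.77 in formoterol cells at 6 h, against 6.48, 6.20, 6.11 and 6.39 in untreated cells. Combination cells read 6.77, 6.55, 6.35 and 6.62, against 6.24, 6.05, 5.77 and 6.14 in budesonide cells. Neither pair overlapped. HDAC4 rose by 0.50 ± 0.12 with formoterol (adjusted p = 0.00438) and was higher with the combination than with budesonide by 0.52 ± 0.12 (adjusted p = 0.00218). The combination overlapped untreated cells, with a difference of 0.28 ± 0.12 (adjusted p = 0.114), and budesonide differed from untreated cells by -0.25 ± 0.12 (adjusted p = 0.199).

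The HDAC4 results rest on 1 probe set of 6, 11743453_s_at, whose suffix in the manufacturer's naming marks probes shared with other transcripts. The other 5 had means of 3.48 or less. With formoterol at 6 h 5 of 6 probe sets ran higher, from -0.03 to 0.50, and 1 was called. For the combination against budesonide 1 of 6 ran higher, from -0.27 to 0.52. With the mean of all probe sets the differences were 0.13 (adjusted p = 0.521) and -0.04, and without replicate number 2 the formoterol difference was 0.40 (adjusted p = 0.225). Formoterol replicate 2 at 6 h also had a 3' minus 5' difference of the actin control, a measure of RNA integrity, the highest of all 16 arrays numbered 2, and the part of this in the result was not tested.

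HDAC7, the class IIa member known from thymocytes and endothelium, was not called against untreated cells at any time. Its differences ran from -0.19 with formoterol to 0.20 with budesonide, both at 2 h. At 6 h all budesonide arrays (6.976 and above) lay above all untreated arrays (6.754 to 6.962). All formoterol arrays at 6 h (6.752 and below) lay below the untreated ones. Replicate 3 at 2 h stood apart in every group, at 8.02 with budesonide, 7.69 with formoterol, 7.82 with the combination and 7.88 untreated, while the other arrays at 2 h lay between 6.40 and 7.09. These 4 arrays had actin 3' minus 5' differences from 1.35 to 1.61, the highest of their groups. In untreated cells at 2 h, however, replicate 1 had 1.34 beside 1.35 for replicate 3, with HDAC7 at 6.85. Untreated replicate 1 at 6 h had 2.21, with HDAC7 at 6.91. The same difference of the GAPDH control was 0.56 to 0.83 on the 4 arrays and 0.10 to 0.35 on the other arrays at 2 h. The part of RNA integrity in the HDAC7 values was not tested. The combination against budesonide differed by -0.22 ± 0.19 at 2 h (adjusted p = 0.856) and by -0.33 ± 0.19 at 6 h (adjusted p = 0.370), where combination arrays all lay lower. With a replicate block within each time these had adjusted p of 0.0411 and 0.000379. The SE of 0.19 pools all 16 groups. The SD within groups was 0.49 to 0.56 at 2 h, with replicate 3 apart, and 0.07 to 0.10 at 6 h. The lack of a call at 6 h is therefore no sign that HDAC7 was unchanged there.

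**Figure D4:**
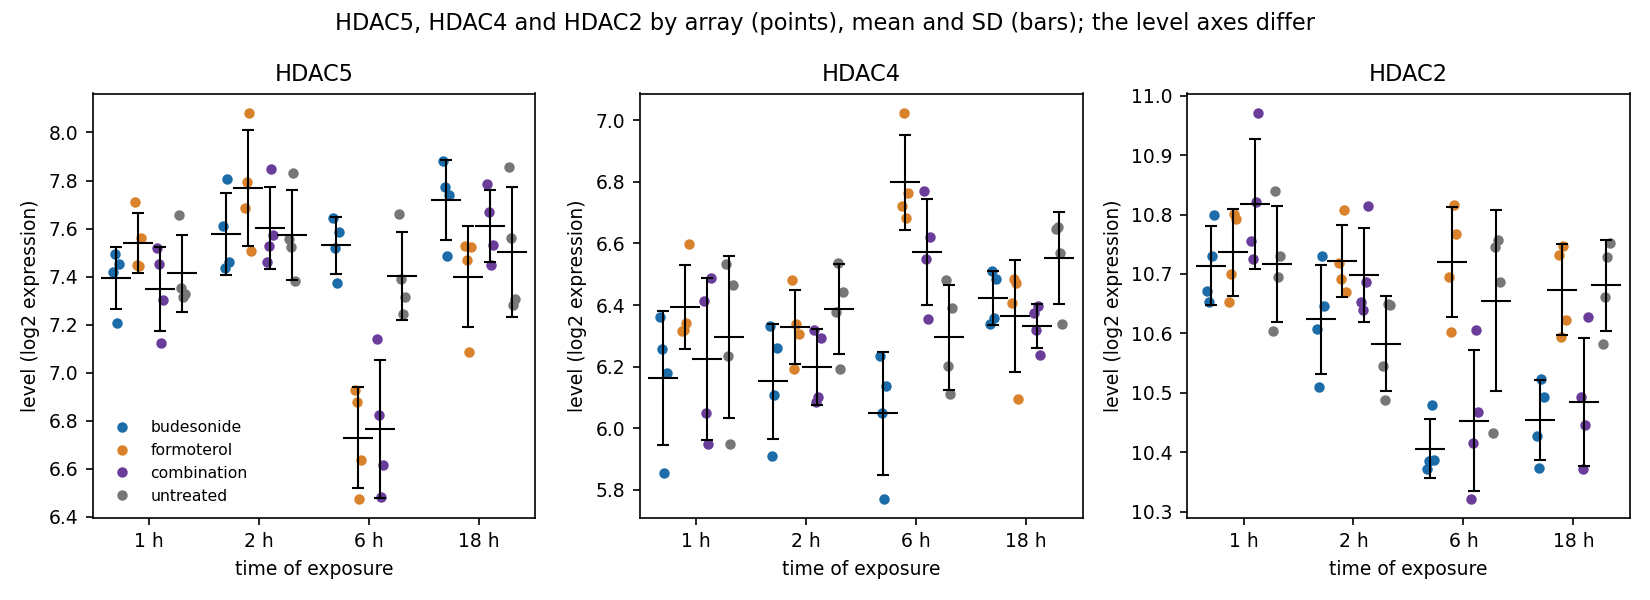
Level (log2 expression) of HDAC5, HDAC4 and HDAC2 on each array at 1, 2, 6 and 18 h, with 4 points for each group, a wide bar for the mean and whiskers for the SD; each panel has its own level axis. At 6 h HDAC5 was low in formoterol and combination cells, HDAC4 was high in formoterol cells, and HDAC2 differed from untreated cells by -0.25 in budesonide and -0.20 in combination cells.

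Among class I members HDAC2, the deacetylase recruited with the glucocorticoid receptor, was lower at 6 and 18 h where budesonide was present, by a small amount. It had 10.37, 10.38, 10.48 and 10.39 with budesonide at 6 h and 10.32, 10.42, 10.61 and 10.47 with the combination, against 10.43, 10.75, 10.76 and 10.69 untreated. At 18 h it had 10.43, 10.37, 10.52 and 10.49 with budesonide and 10.49, 10.37, 10.45 and 10.63 with the combination, against 10.58, 10.66, 10.73 and 10.75 untreated. Only budesonide at 18 h was clear of the untreated arrays. With budesonide HDAC2 differed by -0.25 ± 0.07 at 6 h (84.1% of the untreated level, adjusted p = 0.00379) and -0.23 ± 0.07 at 18 h (85.4%, adjusted p = 0.00765). With the combination it differed by -0.20 ± 0.07 at both times (adjusted p = 0.0193 and 0.0217). Formoterol differed by 0.06 ± 0.07 at 6 h and -0.01 ± 0.07 at 18 h, neither called.

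Against formoterol the combination differed in HDAC2 by -0.27 ± 0.07 at 6 h (adjusted p = 0.00176) and -0.19 ± 0.07 at 18 h (adjusted p = 0.0330), with overlapping arrays. Both probe sets of HDAC2 ran lower in all 6 called comparisons. The second, dimmer one (mean 5.36) differed more at 18 h, by -0.69 with budesonide, -0.93 with the combination and -0.68 for the combination against formoterol. At 6 h it differed by -0.48 with budesonide and -0.15 with the combination, and the last of these was not called. Both budesonide calls of HDAC2 were lost without replicate number 2 (adjusted p = 0.0716 at 6 h and 0.0654 at 18 h), and that at 18 h also without replicate number 4 (0.0506). The combination call at 6 h was lost without any 1 of combination replicates 1 and 2 or untreated replicates 2, 3 and 4 (adjusted p 0.0511 to 0.122), and with the compared arrays only (0.115). At 18 h the call against untreated cells was lost without any 1 of combination replicates 2 and 3 or untreated replicates 3 and 4 (adjusted p 0.0609 to 0.114). The call against formoterol at 18 h was lost without combination replicates 1, 2 or 3 or formoterol replicates 1 or 3 (adjusted p 0.0555 to 0.154), after array median centring (0.0691), without the intensity trend (0.0517) and with the compared arrays only (0.0704).

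HDAC1, HDAC3 and HDAC8 were not called in any comparison. HDAC1, the partner of HDAC2 in most complexes, kept group means between 10.27 and 10.52. Its widest difference from untreated cells was 0.12 ± 0.06 with budesonide at 18 h (adjusted p = 0.207), where all budesonide arrays lay higher, and the replicate block within each time gave an adjusted p of 0.0485. HDAC3, the enzyme of the NCoR and SMRT complexes, ranged from 7.99 to 8.23. Its difference with the combination at 6 h was -0.21 ± 0.09 (95% interval -0.38 to -0.03, adjusted p = 0.102), with all combination arrays lower. HDAC8, known for deacetylating the cohesin subunit SMC3, had the widest spread within groups, 0.33 (median SD), and differences from untreated cells between -0.17 and 0.15.

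HDAC6, the tubulin deacetylase, passed no test in the fit without a replicate block. At 18 h it had 7.64, 7.37, 7.18 and 7.24 with budesonide and 7.73, 7.34, 7.29 and 7.24 with the combination, against 7.47, 7.19, 6.72 and 6.94 untreated. Every treated array was above the untreated array of its own replicate number, although the groups overlapped. The differences were 0.28 ± 0.17 (adjusted p = 0.296) and 0.32 ± 0.17 (adjusted p = 0.205). With a replicate block within each time the adjusted p was 0.000792 and 0.000128. HDAC6 was also high on replicate 3 at 2 h in all 4 groups, between 7.47 and 7.53.

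HDAC11, the class IV member, was lower with the combination than with formoterol at 2 and 18 h. At 2 h it had 5.73, 5.53, 5.69 and 5.94 with the combination, against 5.94, 6.15, 6.06 and 6.02 with formoterol. At 18 h it had 6.06, 6.00, 5.98 and 6.05 with the combination, against 6.27, 6.45, 6.29 and 6.23 with formoterol. The arrays did not overlap at either time. The differences were -0.32 ± 0.10 (adjusted p = 0.0456, background 4.15%) and -0.29 ± 0.10 (adjusted p = 0.0308, background 17.6%). With the mean of its 5 probe sets they were -0.13 (adjusted p = 0.688) and -0.08 (adjusted p = 0.593).

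These HDAC11 calls were lost in several other settings. At 2 h the call was lost without any 1 of combination replicates 1, 2 and 3 or formoterol replicates 2, 3 and 4 (adjusted p 0.0819 to 0.298), and without combination replicate 2 at 18 h (0.0501). It was also lost after array median centring (0.0511), repeated quantile normalization (0.0705) and with the compared arrays only (0.255). At 18 h it was lost without any 1 of combination replicates 2 and 3 or formoterol replicates 2 and 3 (0.0505 to 0.118) and with the compared arrays only (0.0595). Against untreated cells the combination differed in HDAC11 by -0.27 ± 0.10 at 2 h (adjusted p = 0.0776), and against budesonide by -0.30 ± 0.10 (adjusted p = 0.0664). With a replicate block within each time these adjusted p were 0.0333 and 0.0225.

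Counted by comparison, the members called at 6 h were 2 of 10 with budesonide, both lower, against 14.2% of all genes in either direction and 8.12% lower. With formoterol at 6 h they were 3 of 10, 1 higher and 2 lower, against 4.81% of all genes (2.76% higher and 2.06% lower). With the combination at 6 h they were 3 of 10, all lower, against 18.6% in either direction and 9.95% lower, with 8.61% higher. At 18 h 2 of 10 were called with budesonide (18.3% of all genes), 1 with formoterol (1.11%, of which 0.64% lower and 0.469% higher) and 2 with the combination (21%), all lower. Over all times the members' shares with budesonide and the combination were near the background, and are not a result about the family. The 4 formoterol calls came from HDAC9 at 6 and 18 h and from HDAC5 and HDAC4 at 6 h. They are results about these genes, not about the family. That of HDAC4 was lost with the mean of all probe sets (0.13, adjusted p = 0.521). The members' median difference at 6 h was -0.04 with budesonide, -0.06 with formoterol and -0.17 with the combination, beside 0.03, -0.01 and -0.00 over all genes.

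The combination against budesonide gave 4 calls in 40 pairs (background 3.3%), 3 at 6 h (6.72%, with 3.91% higher and 2.81% lower) and 1 at 18 h (0.651%, with 0.347% lower and 0.303% higher). These were HDAC9 and HDAC5 lower and HDAC4 higher at 6 h, and HDAC9 lower at 18 h. None was called at 1 h (1.47%) or 2 h (4.38%). The combination against formoterol gave 6 (background 9.11%), all lower, which were HDAC11 at 2 h, HDAC2 and HDAC9 at 6 h (13.4%, with 7.85% lower and 5.57% higher) and HDAC2, HDAC9 and HDAC11 at 18 h (17.6%, with 8.66% lower and 8.95% higher). HDAC9 was in both lists, HDAC5 and HDAC4 were called where formoterol was added to budesonide, and HDAC2 where budesonide was added to formoterol. The interaction of HDAC2, HDAC4 and HDAC5 was called at no time.

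Genes that work with the deacetylases were counted from lists chosen by function. Of 24 measured partners and kinases of class IIa enzymes, 2 were higher and 3 lower with budesonide at 6 h, 4 higher and none lower with formoterol, and 5 higher and 4 lower with the combination. Of all genes at 6 h, 6.12% were higher and 8.12% lower with budesonide, 2.76% and 2.06% with formoterol, and 8.61% and 9.95% with the combination. At 18 h the counts were 3 higher and 6 lower with budesonide, 0 with formoterol, and 4 higher and 8 lower with the combination. The list's median difference at 18 h was -0.14 with budesonide and -0.12 with the combination, beside 0.03 and 0.03 over all genes. The lower calls thus outnumbered the higher ones at 18 h, where 9.78% of all genes were lower and 8.56% higher with budesonide, and 10.7% lower and 10.3% higher with the combination.

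BCL6, a transcriptional repressor that binds class IIa deacetylases, rose most. It averaged 9.97 with budesonide and 9.38 with the combination at 2 h, against 7.66 in untreated cells, a rise of 2.30 ± 0.10 (adjusted p = 6.17e-28) and 1.72 ± 0.10 (adjusted p = 2.80e-22). BCL6 was still higher by 1.27 with budesonide at 6 h and by 1.24 with the combination at 18 h. SIK2, a salt-inducible kinase, rose with formoterol by 0.68 ± 0.10 at 2 h and 0.63 ± 0.10 at 6 h, and with the combination by 0.88 ± 0.10 and 1.08 ± 0.10. PRKD1, protein kinase D1, rose at 18 h by 0.93 ± 0.10 with budesonide and 0.65 ± 0.10 with the combination. All arrays of these groups lay above the untreated arrays.

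Of the 10 measured genes of the SIN3 complex, which carries HDAC1 and HDAC2, 2 were higher with formoterol and 4 with the combination at 6 h, none lower (of all genes 2.76% and 8.61% were higher). At other times some were lower. With the combination 3 were higher and 2 lower at 2 h (9.49% of all genes in either direction). At 18 h 1 was higher and 2 lower with the combination (10.3% and 10.7%), and 1 higher and 1 lower with budesonide (8.56% and 9.78%). ING1, the SIN3 subunit that reads methylated histone H3, rose at 2 h by 1.21 ± 0.11 with formoterol (adjusted p = 1.10e-13) and 0.98 ± 0.11 with the combination. SAP30, a scaffold subunit, rose by 0.62 ± 0.08 with the combination at 2 h and differed by -0.40 ± 0.08 with budesonide at 18 h. SAP18 rose by 0.48 ± 0.06 with formoterol at 6 h. Of 11 NuRD genes 2 were called, both lower with the combination at 18 h, where 10.7% of all genes were lower, so the share was near the background. There GATAD2A differed by -0.48 ± 0.17 and MTA2 by -0.31 ± 0.12.

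Of the 7 genes of the CoREST and MIER list 2 were lower at 18 h with budesonide and 2 with the combination, where 9.78% and 10.7% of all genes were lower. The list's median differences there were 0.06 and 0.04, beside 0.03 and 0.03 over all genes. Its scaffold RCOR1 differed at 18 h by -0.29 ± 0.09 with budesonide and -0.31 ± 0.09 with the combination, RCOR3 differed by -0.43 ± 0.12 with the combination at 2 h, and the demethylase KDM1A differed by -0.30 ± 0.06 with the combination at 6 h. In the NCoR and SMRT list, with 3 genes measured, the exchange factor TBL1XR1 was higher by 0.43 ± 0.07 with budesonide at 6 h and differed by -0.33 ± 0.07 with the combination at 18 h. With formoterol at 6 h TBL1X was higher by 0.37 ± 0.09 and TBL1XR1 differed by -0.27 ± 0.07 (adjusted p = 0.0164).

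The sirtuins, deacetylases that use NAD in place of zinc, gave 3 higher and no lower of 7 with budesonide at 18 h, and 4 higher and no lower with the combination, where 8.56% and 10.3% of all genes were higher. The mitochondrial SIRT5 rose by 0.60 ± 0.11 with each at 18 h, and SIRT3 by 0.42 ± 0.08 with budesonide. SIRT1 rose by 0.61 ± 0.10 with formoterol at 2 h and differed by -0.37 ± 0.10 with budesonide at that time. Of the 12 acetyltransferases measured, 3 were higher with budesonide at 6 h and none lower (of all genes 6.12% were higher and 8.12% lower), among them KAT8 by 0.40 ± 0.09 and KAT5 by 0.32 ± 0.09. The median difference of that list was the other way, -0.09, beside 0.03 over all genes. KAT7 was higher by 0.39 ± 0.10 with the combination at 6 h. BRD3, a reader of acetylated histones and 1 of 2 measured, was higher by 0.24 ± 0.07 with budesonide at 18 h.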

How the data were processed

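Expression was measured on 64 single-colour arrays. The authors deposited log2 values per probe set. RMA is named in the submitters' processing notes, and its version and whether all arrays were normalized together are not given in the sources used here. With 4 arrays a group, their number limits the precision. Gene names came from the platform annotation: 44994 probe sets had 1 symbol and were used, 1832 had several and 2569 none. Each gene took its probe set with the highest mean.

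Groups followed the labels. limma 3.58.1 (R 4.3.3) fitted 16 group means with an intensity trend (48 residual degrees of freedom). It tested treatments against untreated cells, the combination against each drug, the interaction, later untreated cells against 1 h, and effects over time by moderated F tests. Two-sided p-values were adjusted by Benjamini-Hochberg within each contrast, over 18132 genes, or 44994 probe sets for HDAC9, and called under 0.05. The fit was tested on simulated data.

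The members, lists and rules were chosen with earlier results of these data known. All members and all HDAC9 probe sets are named. A member is given array by array where called with a difference of at least 0.5, and HDAC2, HDAC6, HDAC7 and HDAC11 were added after their values were seen. From each list up to 3 genes with the largest called differences at 2, 6 or 18 h are named, and the 5 genes most like a member that spanned at least 1.

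Replicates are numbered 1 to 4 in the labels. Deviations of same-numbered arrays correlated above 0.1 in every pair in 13 of 27 contrasts, whose numbers were taken to pair the arrays. The main fit used no pairing in any contrast, and replicate blocks were fitted only as alternatives. Alternatives were 2 replicate blocks, median centring, quantile normalization, a filter on dim genes, no trend, compared arrays only, the mean of all probe sets and left-out arrays. RefSeq (GRCh38.p14) gave the sequences. Python 3.11.15 and matplotlib 3.10.9 made the figures.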

Additional observations from a re-analysis of the deposited data

Results flagged for a closer look

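In 12 of 160 groups of 4 arrays, 1 array stood apart from the other 3 by the gap to its nearest neighbour over the group's range; a ratio above Dixon's 95% critical value marks an array. Chance alone flags about 1 group in 20. The ratio was 0.882 with budesonide, 0.830 with the combination and 0.949 in untreated cells for HDAC7 on replicate 3 at 2 h. For HDAC7 with formoterol at 18 h it was 0.871, for replicate 2 at 6.82 below 6.89 to 6.91. HDAC9 with formoterol at 2 h had replicate 4 at 5.22 below 5.68 to 5.76 (ratio 0.839). HDAC5 had replicate 3 at 7.09 with formoterol at 18 h (0.872) and replicate 1 at 7.66 in untreated cells at 1 h (0.893). HDAC4 had replicate 4 at 6.60 with formoterol at 1 h, above 6.32 to 6.34 (0.906). HDAC2 had replicate 3 at 10.48 with budesonide at 6 h, above 10.37 to 10.39 (0.867). HDAC3 had replicate 3 at 7.95 with formoterol at 1 h, below 8.15 to 8.17 (0.900). HDAC8 had replicate 1 at 6.19 with the combination at 1 h, below 6.45 to 6.50 (0.841), and at 5.85 in untreated cells at 18 h, below 6.71 to 6.81 (0.892).

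Effects that differed between times by limma's moderated F test were those of HDAC9 with budesonide (adjusted p = 4.59e-15), formoterol (1.82e-09) and the combination (5.22e-21), of HDAC2 with budesonide (0.0252) and the combination (0.00205), of HDAC5 with formoterol (0.00241) and the combination (0.00381), and of HDAC4 with formoterol (0.0305).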

How the results depend on the processing

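The HDAC9 calls against untreated cells at 6 and 18 h kept their direction and their side of the threshold in all 76 alternatives, as did those of HDAC5 at 6 h. Of these alternatives 64 left out 1 array each, in most cases an array outside the groups compared. With the mean of all probe sets the HDAC9 differences were shallower, for example -0.24 in place of -1.22 with budesonide at 6 h. Of the counts of members called, those with a replicate block were 9 for the combination against untreated cells (5 without the block), and within each time 9 for budesonide (4), 10 for the combination (5), 7 for the combination against budesonide (4) and 1 for the interaction, HDAC9 at 6 h (0.55, adjusted p = 0.0378). The block within each time also gave 4 members in the F test for budesonide (2) and 5 for the combination (3). It gave 5 HDAC9 probe set calls for budesonide (3) and, like the replicate block, the filter on dim probe sets and the fit with no intensity trend, 2 for the combination against budesonide (1). It gives no value for untreated cells between times. Changed calls in contrasts whose numbers do not pair the arrays were the HDAC9 interaction at 6 h and those of HDAC3, HDAC4 and HDAC11 for the combination at 6 h, HDAC4 and HDAC7 for budesonide at 6 h, HDAC5 and HDAC6 for the combination against formoterol at 18 h and HDAC11 at 6 h.

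With the compared arrays only, the combination against formoterol gave 3 calls (6), and with the mean of all probe sets the combination against budesonide gave 2 (4). That mean turned HDAC4 for the combination against budesonide at 6 h to -0.036, and the cause was not tested. Leaving out arrays, counts ran from 2 to 4 for budesonide, 3 to 4 for formoterol, 3 to 6 for the combination, 3 to 5 for the combination against budesonide and 3 to 6 against formoterol. They stayed at 0 for the interaction and for untreated cells. The F test gave 1 to 2, 1 to 3 and 2 to 4 members for budesonide, formoterol and the combination. HDAC9 probe set calls ran from 2 to 4, 2 to 2 and 2 to 3 in these, and from 1 to 2 for the combination against budesonide. Leaving out replicate number 2 gave 2 calls for budesonide and 3 for the combination. HDAC2 then lost its budesonide calls at 6 h (adjusted p = 0.0716) and 18 h (0.0654), and that at 18 h also without replicate number 4 (0.0506). Without replicate number 2 or 4 the F tests for budesonide and formoterol gave 1 member each, and without number 3 that for budesonide gave 1.

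Counts over all genes moved too, for example for formoterol at 18 h from 201 to 527 with the replicate block, 965 within each time, 77 with the compared arrays only and 58 without replicate number 2. For the combination against budesonide at 18 h they were 118, 359, 665, 184 and 52. Over 27 contrasts the lowest count came mostly without replicate number 2, and the highest with a block. Dim signal limits the other 4 HDAC9 probe sets.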
